A study of Mus musculus with 7 samples.

Results

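The alpha-defensins of mouse Paneth cells were read through 8 transcript clusters (gene-level probe sets), out of 35556 on the array. A cluster was included when its annotation named at least 1 symbol beginning with Defa, alone or among several. Paneth cells are the granule-bearing cells deep in the crypts of the small intestine, and the samples were total RNA of such cells sorted by flow cytometry from mice aged 4 months. The calorie-restricted group (4 arrays) received 60% of the calories of freely fed mice, and the ad libitum group (3 arrays) ate freely, in both cases for 4 to 7 weeks. Each array held 1 sample, which the titles number as a biological replicate. The sources used here do not state the strain, genotype, sex or any pooling of animals. Values are the deposited log2 expression values. Each difference is the calorie-restricted mean minus the ad libitum mean.

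Alpha-defensins, called cryptdins in the mouse gut, are short cationic peptides with 3 disulfide bonds that disrupt microbial membranes. Paneth cells store them in granules as propeptides, which the metalloprotease Mmp7 (matrilysin) cuts to the active form in mice, and release them into the crypt lumen. Wnt signalling through the transcription factor encoded by Tcf7l2 is known to drive their genes. The family consists of recent gene copies with nearly the same sequence, so a probe for one copy can bind the transcripts of others.

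In RefSeq (GRCm38.p6) the family has 29 protein-coding entries among 40 entries whose symbols begin with Defa, and all 40 lie on mouse chromosome 8. The 8 clusters named 17 of these symbols, 16 of them protein coding and 1 a transcribed pseudogene, Defa-ps1. The other 13 protein-coding entries were named by 0 clusters. Gene identifiers led to the same symbol in RefSeq for all 17. Only 2 clusters named a single gene, 10570735 for Defa24 and 10577437 for Defa39. The other 6 fell into 2 sets by their annotation, called here the Defa21 set and the Defa28 set. The Defa21 set held 2 clusters. Cluster 10570651 named Defa21, Defa22, Defa23 and Defa31, and cluster 10570671 named these and Defa2, Defa20, Defa26, Defa32 and Defa33. The Defa28 set held 4 clusters. Clusters 10570663, 10570700 and 10570723 each named the same 8 symbols, Defa3, Defa17, Defa23, Defa25, Defa27, Defa28, Defa31 and Defa-ps1. Cluster 10570703 named only 4 of these, Defa25, Defa27, Defa28 and Defa-ps1. Defa23 and Defa31 stood in 5 of the 8 clusters and in both sets, so the sets do not separate all genes.

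RefSeq upstream sequences show how alike these copies are, and where the Wnt-related motif lies. The 250 bases before the annotated start were in the table for 8 of the 17 genes named by the clusters, and these 8 held 5 distinct sequences. Identity within the 28 pairs ranged from 62.3% to 100%, with a median of 78.3%. Gaps count as differences, and the pairs with Defa28 were the lowest, at 62.3% to 68.3%. The annotated start of Defa28 lies at a different point of the shared sequence, so these values do not measure sequence alone. Defa21 and Defa22 were identical over this stretch, as were Defa23 and Defa31, and Defa2 and Defa20. One gene of the Defa21 set, one gene named in both sets, and one gene of the Defa28 set are shown, 5′ to 3′ on the plus strand of GRCm38.p6. They lie at chr8:21025295-21025544 (Defa21), chr8:21054790-21055039 (Defa23) and chr8:21582777-21582976 (Defa28, of which the first 200 bases of the stretch are shown). Capitals mark the TCF/LEF motif ATCAAAG and the TATA box motif TATAAA.
Defa21: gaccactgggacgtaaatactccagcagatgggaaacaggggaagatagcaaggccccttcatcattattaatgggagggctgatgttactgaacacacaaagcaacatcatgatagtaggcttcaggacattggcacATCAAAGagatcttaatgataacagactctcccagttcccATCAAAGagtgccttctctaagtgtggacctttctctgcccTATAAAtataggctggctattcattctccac
Defa23: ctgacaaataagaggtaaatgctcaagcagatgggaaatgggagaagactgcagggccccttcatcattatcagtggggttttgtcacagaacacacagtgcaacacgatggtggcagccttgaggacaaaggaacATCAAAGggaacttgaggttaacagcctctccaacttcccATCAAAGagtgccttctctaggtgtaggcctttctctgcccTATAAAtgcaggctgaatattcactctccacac
Defa28: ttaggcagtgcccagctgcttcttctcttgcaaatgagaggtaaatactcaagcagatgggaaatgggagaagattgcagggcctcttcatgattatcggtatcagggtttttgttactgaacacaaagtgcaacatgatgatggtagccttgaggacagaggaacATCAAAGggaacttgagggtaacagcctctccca

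The TCF/LEF motif ATCAAAG was searched on both strands (reverse complement CTTTGAT) in the 250 bases upstream of each start. It was present for 8 of the 8 named alpha-defensin genes and for 13 of 16 Defa genes in the table, against 3.21% of 32851 windows of all genes. It occurred at least 2 times in 7 of the 8 named genes, against 0.0822% of all windows. In Defa21 the copies lay at positions -112 to -106 and -72 to -66 from the start, and in Defa23 at -114 to -108 and -74 to -68. Defa28 held 1 copy, at -84 to -78. TATAAA, searched on both strands (reverse complement TTTATA), was present in 7 of the 8 and in 12.4% of all windows, and the exception was Defa28. A copy of ATCAAAG had nearly the same bases around it in Defa23 (-114 to -108) and Defa28 (-84 to -78). The annotated start of Defa28 therefore lies further upstream in the shared sequence. Bases past the start were not searched, so whether Defa28 has a TATAAA there was not tested. The windows are copies of one another and are not independent, and a match is a description of the sequence.

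All 8 clusters were among the brightest on every array. Levels ran from 13.2 to 14.1, on arrays whose highest cluster lay between 14.6 and 14.7. A level belongs to a cluster's own probes, so levels of different clusters are not compared here as amounts of RNA. The 2 clusters of the Defa21 set and the Defa24 and Defa39 clusters lay within 1 log2 unit of the highest cluster on every array, which 59 clusters of the table did. Of these 59, 25 had a gene symbol. The Defa24 cluster was 28th to 48th brightest of 35556, and the Defa39 cluster 31st to 44th. Cluster 10570671 was 24th to 46th and cluster 10570651 was 25th to 45th. The 4 clusters of the Defa28 set lay 0.9998 to 1.42 log2 units below the highest cluster, at ranks between 74 and 364.

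Most clusters this bright had small diet differences. Among 14 tested clusters with a mean level of 14 to 15, 4 of them alpha-defensins, the median absolute diet difference was 0.0375 log2 units and the largest was 0.0647. Among 287 at 13 to 14 the median was 0.0411 and the largest 0.581, and among 3263 at 9 to 10 it was 0.104. Called clusters numbered 0 at a level of 13 or more. The spread within groups was small in the same way, with a median SD of 0.0530 at 14 to 15, 0.0903 at 13 to 14 and 0.153 at 9 to 10. The within-group SD of the alpha-defensin clusters was between 0.0403 and 0.0928. The table of processed values holds no saturation call, so whether the bright clusters were saturated was not tested.

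**Figure D1:**
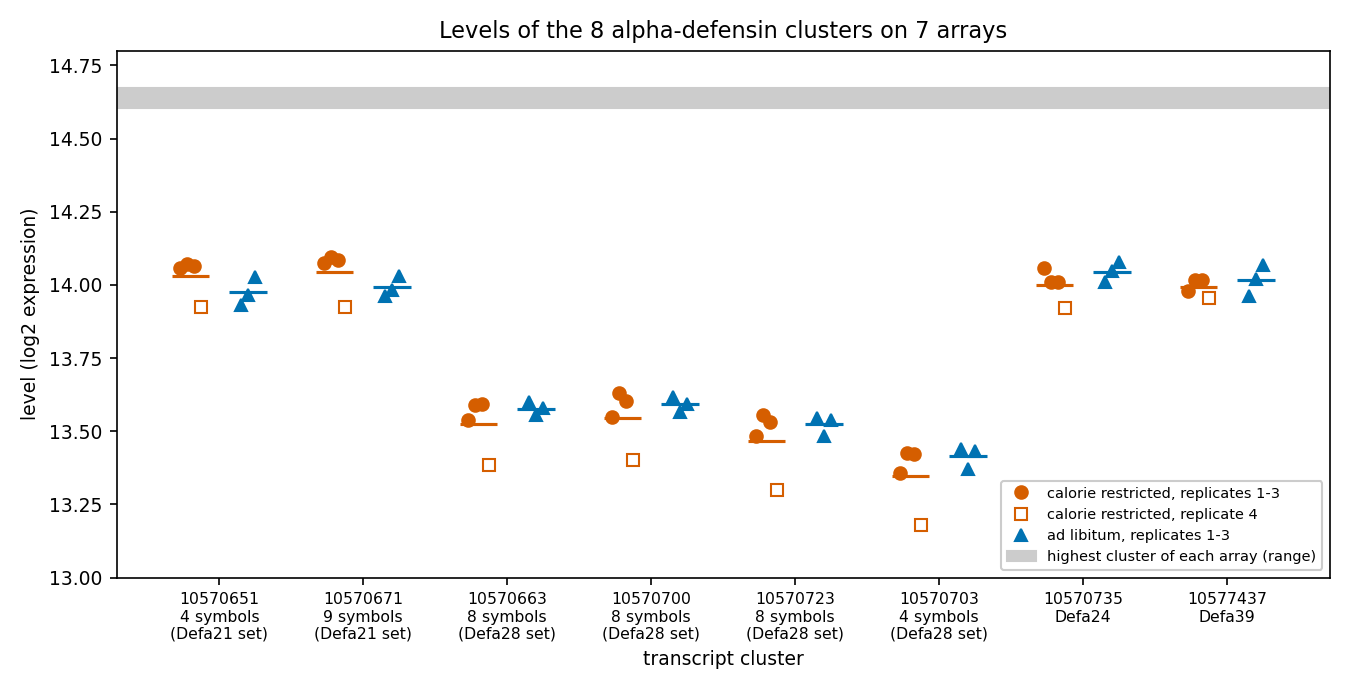
Levels (log2 expression, vertical axis) of the 8 alpha-defensin clusters on 7 arrays, with calorie-restricted arrays on the left of each pair (circles, replicate 4 as an open square) and ad libitum arrays on the right (triangles). Horizontal lines are group means and the grey band is the range of the highest cluster per array (14.6 to 14.7); replicate 4 is the lowest of all 7 arrays for each cluster.

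No diet difference was detectable for any alpha-defensin cluster. Of 15526 clusters with a symbol and a mean of at least 6.79, limma called 93 (0.599%) at an adjusted p below 0.05, 91 higher (0.586%) and 2 lower (0.0129%) under calorie restriction. All 8 alpha-defensin clusters passed the level filter, and 0 were called. An unadjusted p below 0.05 was found for 8.93% of all clusters and for 0 of the 8. Groups did not overlap for 9.91% of all clusters and for 0 of the 8. The count of 91 was 0 without calorie restricted replicate 1, 13 and 14 without replicates 2 and 3, 57 without replicate 4, and 33 without ad libitum replicate 2. The number of alpha-defensin clusters called was 0 in each of these fits.

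The Defa24 cluster (10570735) is the one that names Defa24 alone, a cryptdin gene. It was at 14.06, 14.01, 14.01 and 13.92 in the calorie-restricted arrays, against 14.01, 14.05 and 14.08 in the ad libitum arrays. The groups overlapped, with calorie restricted replicate 4 the lowest array. The means were 14.00 ± 0.06 and 14.04 ± 0.03 (SD, n = 4 and n = 3), and the difference was -0.05 ± 0.05 (SE, 95% interval -0.16 to 0.07, adjusted p = 0.868). Leaving out calorie restricted replicate 4 gave -0.0196, and leaving out ad libitum replicate 3 gave -0.029. The difference was larger without calorie restricted replicate 1 (-0.0651) and without ad libitum replicate 1 (-0.0637). Median centring turned the sign (0.0407).

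The Defa39 cluster (10577437) names a gene whose RefSeq synonyms, CRS1C-3 and CRS1C-6, place it among the cryptdin-related sequences. It was at 13.98, 14.02, 14.02 and 13.96 in the calorie-restricted arrays, against 13.96, 14.02 and 14.07 in the ad libitum arrays. The lowest and highest values stood 0.111 apart, the smallest range over arrays among the 8 clusters. The difference was -0.02 ± 0.05 (95% interval -0.14 to 0.09, adjusted p = 0.933). Leaving out calorie restricted replicate 4 gave -0.0126, and leaving out ad libitum replicate 1 gave -0.0517. The sign turned when ad libitum replicate 3 was left out (0.00107) and with median centring (0.0624).

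The Defa21 set was on average higher under calorie restriction, within the spread between arrays. Cluster 10570651 was at 14.06, 14.07, 14.07 and 13.93 in the calorie-restricted arrays, against 13.93, 13.96 and 14.03 in the ad libitum arrays. Calorie restricted replicates 1 to 3 lay above all 3 ad libitum arrays and replicate 4 lay below them. The difference was 0.05 ± 0.06 (95% interval -0.08 to 0.18, adjusted p = 0.860), and 0.0894 without replicate 4, a move of more than 1.5 times. Cluster 10570671 had the same arrangement. It was at 14.07, 14.10, 14.08 and 13.92 in the calorie-restricted arrays, against 13.96, 13.98 and 14.03 in the ad libitum arrays. Its difference was 0.05 ± 0.06 (adjusted p = 0.865), and 0.0931 without replicate 4, a move of more than 1.5 times (limma, adjusted p = 0.525).

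The Defa28 set was on average lower under calorie restriction, also within the spread, and the sign turned for all 4 clusters after median centring (0.0196 to 0.0406). Cluster 10570663 was at 13.54, 13.59, 13.59 and 13.38 in the calorie-restricted arrays, against 13.60, 13.55 and 13.58 in the ad libitum arrays. Replicate 4 was the lowest of the 7, and the SD was 0.0978 over the calorie-restricted arrays and 0.0229 over the ad libitum arrays. Its difference was -0.05 ± 0.06 (adjusted p = 0.881), and -0.00407 without replicate 4. Cluster 10570700 was at 13.55, 13.63, 13.60 and 13.40 in the calorie-restricted arrays, against 13.62, 13.57 and 13.59 in the ad libitum arrays, with a difference of -0.05 ± 0.07. Without replicate 4 it was 0.0017. Cluster 10570723 had a difference of -0.06 ± 0.07 and was -0.0008 without replicate 4. Cluster 10570703, which names the fewest genes of this set, had the largest difference of the 8 as deposited and the smallest after median centring (-0.07 ± 0.07, 95% interval -0.23 to 0.10, adjusted p = 0.865, as deposited). It was 0.0196 after median centring and -0.0112 without replicate 4, where the largest was 0.0931 for cluster 10570671. It was at 13.36, 13.43, 13.42 and 13.18 in the calorie-restricted arrays, against 13.44, 13.37 and 13.43 in the ad libitum arrays.

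Over the 8 clusters the median difference was -0.05, with 2 positive and 6 negative, beside a median of 0.01 over all clusters tested, 54.3% of which were positive. After median centring all 8 were positive and the median was 0.04, beside 0.10 over all clusters. The 95% intervals lay between -0.234 and 0.187 as deposited. They reached up to 0.346 after median centring and down to -0.296 without ad libitum replicate 2 (cluster 10570703). Total RNA was measured in bulk, so fewer cells of a type and less RNA per cell cannot be told apart.

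**Figure D2:**
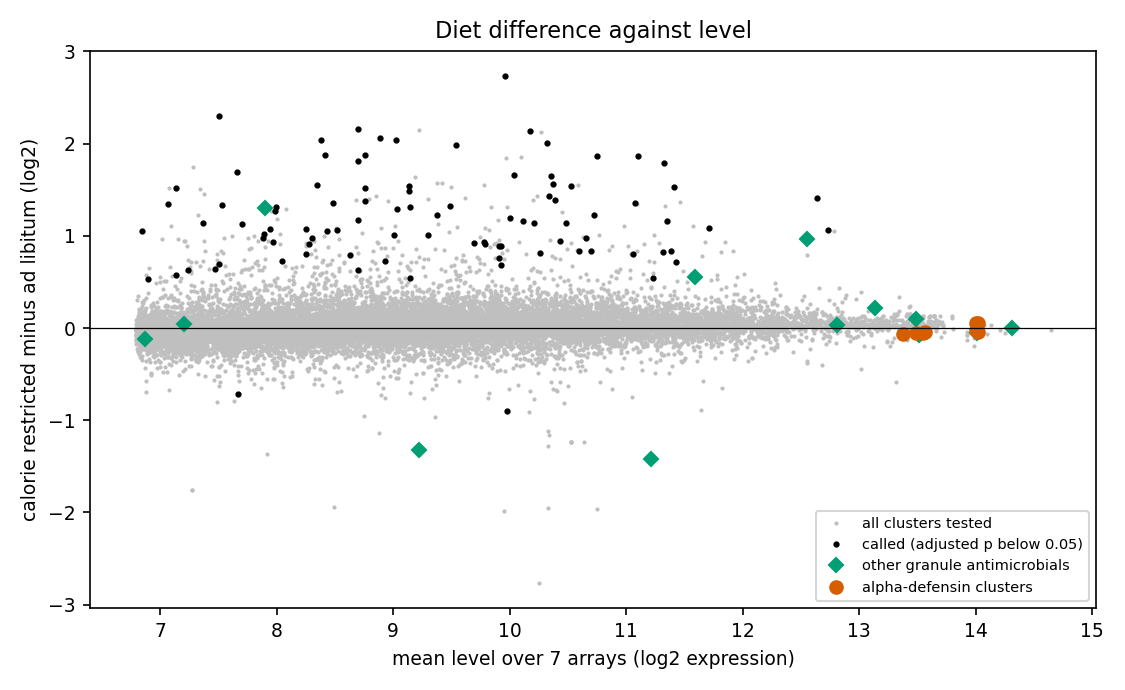
Diet difference (calorie restricted minus ad libitum, log2, vertical axis) against mean level (log2 expression, horizontal axis) for 15526 clusters, with the 93 called clusters in black, 13 other granule antimicrobials as diamonds and the 8 alpha-defensin clusters as circles. The alpha-defensins lie at the bright end, between -0.07 and 0.05, where differences of all clusters are small.

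**Figure D3:**
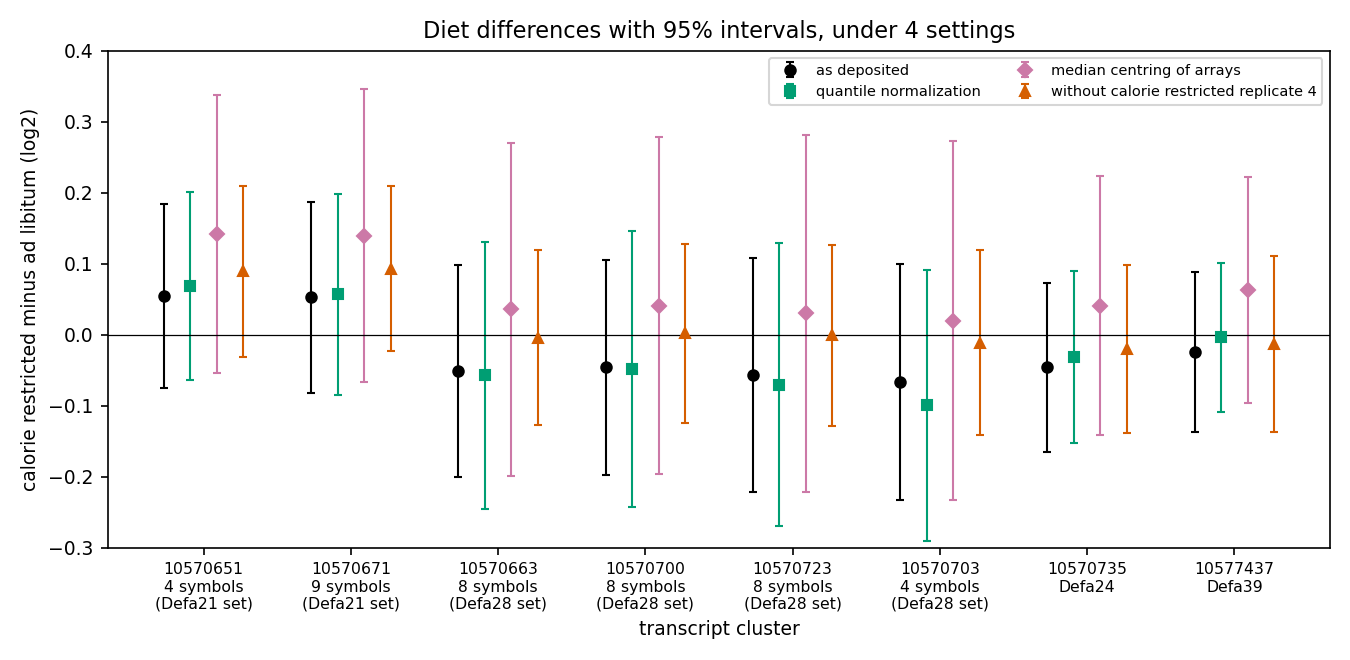
Diet difference with its 95% interval (log2 units, vertical axis) for each alpha-defensin cluster, as deposited, after quantile normalization, after median centring and without calorie restricted replicate 4. Each interval includes 0, and after median centring all 8 point estimates are positive.

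Calorie restricted replicate 4 was the lowest of all 7 arrays for 8 of 8 alpha-defensin clusters, against 19.3% of all clusters tested. At a mean level of 14 to 15 it was lowest for 10 of 14 clusters. At 13 to 14 it was lowest for 40 of 287 (13.9%), and both counts include alpha-defensin clusters. The same array was lowest for 10 of 14 Paneth markers measured through single-symbol clusters. Lysozyme (Lyz1) was at 14.30, 14.34, 14.33 and 14.26 in the calorie-restricted arrays, against 14.30, 14.31 and 14.33 in the ad libitum arrays. Mmp7 was at 13.92, 14.02, 14.01 and 13.69, against 14.02, 13.94 and 13.91, with a difference of -0.05 ± 0.08 (adjusted p = 0.920). The angiogenin Ang4, another granule antimicrobial, was at 13.48, 13.58, 13.53 and 13.33, against 13.52, 13.60 and 13.54. It was lowest for 5 of 13 other granule antimicrobials, among them Lyz1 and Ang4, and the highest array for others such as Reg3a and Zg16. It was also lowest for 14 of 20 processing and granule genes and for 7 of 10 goblet cell markers. The median over all clusters was 7.26, 7.24, 7.27 and 7.42 in the calorie-restricted arrays and 7.29, 7.44 and 7.42 in the ad libitum arrays, so replicate 4 had the highest median of its group.

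**Figure D4:**
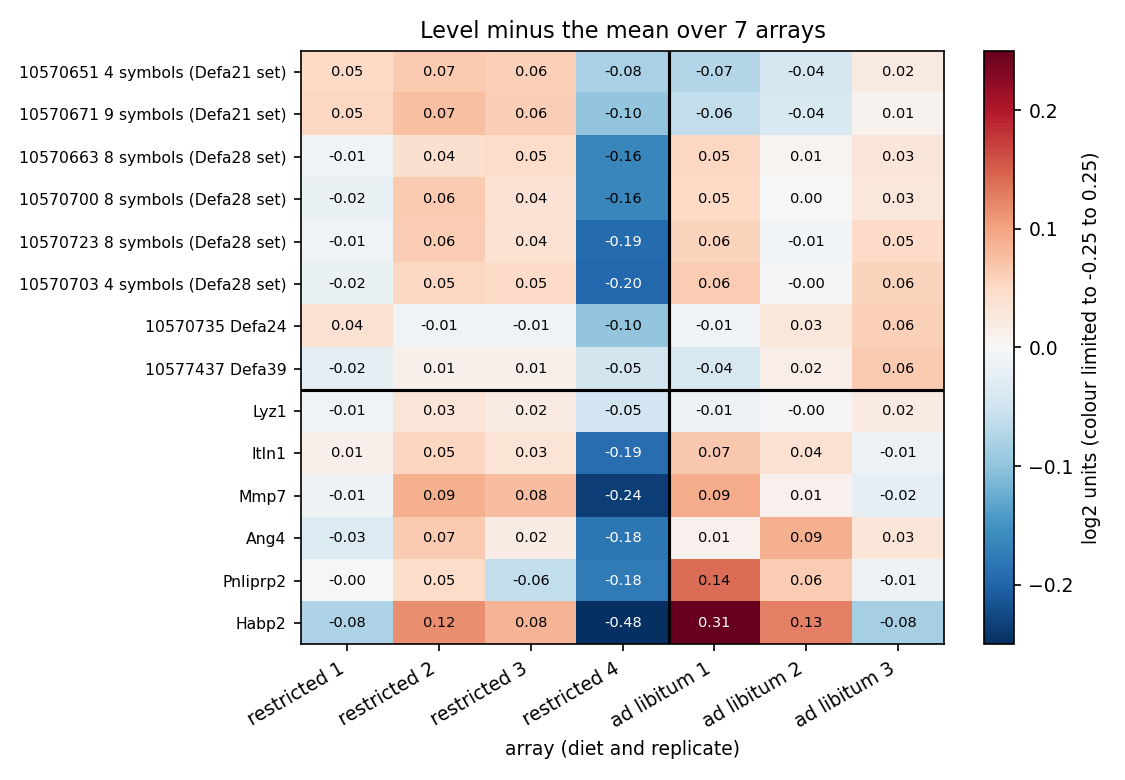
Level minus the mean over 7 arrays (log2 units, colour and printed value) for the 8 alpha-defensin clusters (above the line) and 6 of the 10 Paneth markers that were lowest in replicate 4 (below), with the 4 calorie-restricted arrays left of the 3 ad libitum arrays. Calorie restricted replicate 4 is the lowest column for each alpha-defensin row, from -0.05 for Defa39 to -0.20 for cluster 10570703. The marker rows share this by their selection, and it held for 10 of all 14 Paneth markers.

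Clusters of the same set followed each other closely over the 7 arrays, and the 2 sets differed. Pearson's r was 0.987 between both clusters of the Defa21 set and 0.988 to 0.996 between the 6 pairs of the Defa28 set. Between a cluster of one set and a cluster of the other, r was 0.504 to 0.639. The Defa24 cluster correlated at 0.668 to 0.727 with the Defa28 set, at 0.487 and 0.511 with the Defa21 set, and at 0.679 with the Defa39 cluster. These values rest on 7 arrays and on a total range of at most 0.259 log2 units per cluster. Clusters of a set name some or all of the same genes and can share RNA, so their r is no sign of separate genes moving together.

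The difference between the sets within an array does not depend on how arrays are centred. The Defa21 set lay 0.584, 0.534, 0.537 and 0.608 log2 units above the Defa28 set in the calorie-restricted arrays, against 0.397, 0.479 and 0.494 in the ad libitum arrays. All calorie-restricted arrays, replicate 4 included, lay above all ad libitum arrays. The means were 0.566 ± 0.036 and 0.457 ± 0.053 (SD, n = 4 and n = 3), a difference of 0.109. Leaving out any 1 array gave 0.0789 to 0.128. Groups that are apart on all arrays stay apart without 1 of them, so these fits could not test the separation. Groups were also apart for 8 of 8 single pairs made of 1 cluster from each set. For all 28 pairs of alpha-defensin clusters the count was 10, which includes these 8. Among 10440 pairs of single-symbol clusters at a mean level of 13 or more, 8.52% had groups that did not overlap. The 8 pairs repeat the same arrays and genes and are not independent, and this contrast was chosen after its values were seen, so it has no test. After quantile normalization the groups overlapped, with 0.598, 0.538, 0.514 and 0.623 in the calorie-restricted arrays and 0.319, 0.462 and 0.528 in the ad libitum arrays. The Defa21 set also lay higher relative to the mean of the Defa24 and Defa39 clusters, at 0.048, 0.072, 0.062 and -0.013 against -0.038, -0.059 and -0.042. Relative to Lyz1 the diets overlapped for the Defa21 set, at -0.234, -0.258, -0.258 and -0.338 against -0.351, -0.334 and -0.302. The Defa28 set relative to the Defa24 and Defa39 pair overlapped between diets, at -0.523 ± 0.073 and -0.503 ± 0.059.

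**Figure D5:**
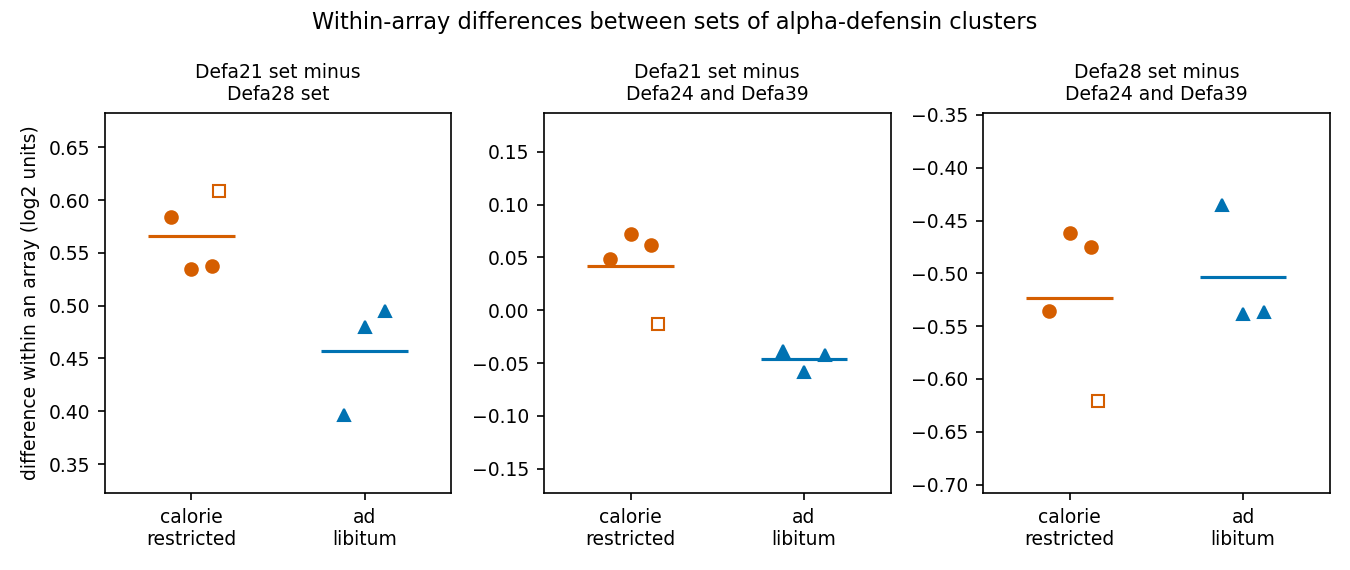
Differences within each array (log2 units, vertical axis) between the Defa21 set, the Defa28 set and the mean of the Defa24 and Defa39 clusters, for calorie-restricted arrays (circles, replicate 4 as an open square) and ad libitum arrays (triangles), with lines at group means. In the first panel the calorie-restricted arrays (0.534 to 0.608) lie above the ad libitum arrays (0.397 to 0.494), and in the third the diets overlap.

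Markers of enterocytes, the absorptive cells, moved with diet in the same arrays. Their list mean over 26 markers was 11.7 to 11.9 in the calorie-restricted arrays and 10.3 to 11.0 in the ad libitum arrays. Of these, 11 of 26 were higher (limma, adjusted p below 0.05), beside 0.586% of all clusters, with a median difference of 1.07. The list was chosen with earlier results of these data known, so this share is a description and no test of enrichment. Without calorie restricted replicate 1, 0 clusters of the whole table were called higher. The cytochrome P450 Cyp2b10 was 3.45-fold higher and the apolipoprotein Apoc3 2.91-fold higher. The part of these cells in the alpha-defensin values was not tested. For Paneth markers the list mean was 13.03 to 13.30 in the calorie-restricted arrays and 13.23 to 13.46 in the ad libitum arrays. Of these markers 0 of 14 were called, beside 0.599% of all clusters. As deposited, 1 was positive and 13 negative, and the median difference was -0.05. Median centring raises all differences by the same amount, and the signs of this list after it were not counted. The mucosal pentraxin Mptx1 had the smallest p and the largest difference of this list (-1.42 ± 0.44), and it lowers the calorie-restricted list mean. The lipase-related Pnliprp2 (-0.11 ± 0.07) and the secreted protease Habp2 (-0.21 ± 0.15) came next by p. Goblet cell markers were bright as well, and 0 of 10 were called, beside the same 0.599% of all clusters. At that share, lists of the size of the Paneth and goblet lists need hold no call. Muc2, the main secreted mucin, was at 13.90 ± 0.06 in the calorie-restricted arrays and 14.10 ± 0.02 in the ad libitum arrays, with a difference of -0.20 ± 0.05 (adjusted p = 0.204). Bst1, an ectoenzyme acting on NAD, was 2.92-fold higher (adjusted p = 0.0488).

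Among genes that handle alpha-defensin propeptides and granules, 23 had a single-symbol cluster and 20 were tested. Of these 20, 0 were called, beside 0.599% of all clusters, a share at which a list of this size need hold no call. In the same 20, 9 were positive and 11 negative, and the median difference was -0.03, beside 0.01 over all clusters. The autophagy genes Atg7 (-0.12 ± 0.09) and Atg16l1 (-0.11 ± 0.09), both needed for normal Paneth granules in mice, had the smallest p, followed by the proprotein convertase Pcsk5 (0.40 ± 0.34) and the fission GTPase Dnm1l (0.06 ± 0.06). Of 24 genes known to regulate Paneth cells or sense microbes, 0 were called, beside the same 0.599% of all clusters, with a median of -0.02. Tcf7l2 was at 10.72, 10.48, 10.66 and 10.72 in the calorie-restricted arrays, against 10.71, 10.79 and 10.66 in the ad libitum arrays (-0.08 ± 0.09, adjusted p = 0.865). The muramyl dipeptide sensor Nod2 was near the filter level, at 7.02 ± 0.12 and 7.04 ± 0.13. The largest change in this list was in the zinc finger factor Zbtb20 (-0.70 ± 0.14), which did not pass (adjusted p = 0.0983). Next by p were the adaptor Myd88 (0.22 ± 0.09), the zinc finger factor Mecom (-0.36 ± 0.17) and the stress sensor Atf6 (0.30 ± 0.15).

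Among 13 genes listed here as other granule antimicrobials, 0 were called, beside the same 0.599% of all clusters, and the median was 0.03. Mptx1, a mucosal pentraxin, was at 10.66, 11.13, 9.48 and 11.15 in the calorie-restricted arrays, against 12.74, 11.69 and 11.62 in the ad libitum arrays (-1.42 ± 0.44, adjusted p = 0.329). The lectin Reg3a (1.30 ± 0.33), the resistin-like Retnlb (-1.32 ± 0.47) and the lectin-like Zg16 (0.96 ± 0.35) also had diets that did not overlap. That makes 4 of the 13, beside 9.91% of all clusters. Zg16 is also among the goblet cell markers used here, so not every gene of this list is particular to Paneth cells. Lyz1 had a difference of -0.0036 ± 0.0445.

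The clusters whose pattern over the 7 arrays was most like that of the Defa24 cluster measured other genes. Fam13a had r = 0.980, the cluster naming Morf4l1 and its pseudogene 0.978, Ttc22 0.959, and 2 clusters naming Gm3912, Zfp772 and Gm45351 had 0.968 and 0.946. Fam13a was at 10.46, 10.26, 10.35 and 10.00 in the calorie-restricted arrays, against 10.34, 10.39 and 10.53 in the ad libitum arrays, with the lowest value again in replicate 4. The closest alpha-defensin cluster, 10570703, ranked 172nd of 15525 by this measure. These r values describe 7 arrays and have no test.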

How the data were processed

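Total RNA (10 ug) of sorted Paneth cells was labelled with biotin and hybridised to 7 Affymetrix arrays, per the labels' protocols. Per the submitters' processing notes, Affymetrix Expression Console produced the deposited log2 values. Its algorithm, version and normalization are not stated in those notes, and the log2 scale was inferred from the values. Cluster symbols came from the platform annotation: 21789 clusters had 1 symbol, 1621 several and 12146 none. The cluster was the unit, and clusters with several symbols were kept.

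Clusters with a symbol and a mean at or above the 40th percentile of the table (6.79) were compared between diets with limma (version 3.58.1, R 4.3.3), moderated by eBayes with a trend on mean level, and Benjamini-Hochberg adjustment over all 15526 clusters. p-values measure the spread between these samples, and the number of arrays limits the precision. Gene lists used single-symbol clusters, the brightest per gene. Named genes were all members, list members that were called or else up to 4 with the smallest p in the Paneth, granule, antimicrobial and regulation lists, and Lyz1, Mmp7, Nod2, Tcf7l2, Ang4 and Bst1. The 5 clusters with the highest correlation with Defa24 were also named. Lists of other cell types are given by counts, with few of their genes. The members and lists were chosen with earlier results of these data known. Promoters were matched by symbol to RefSeq and aligned with Biopython (version 1.88). Alternatives were other scalings, filters and variance models, a block for the replicate number, and fits without each array in turn.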

Additional observations from a re-analysis of the deposited data

Results flagged for a closer look

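In both clusters of the Defa21 set, calorie restricted replicate 4 stood apart from the other 3 calorie-restricted arrays. The gap below the next array, divided by the group's range, was 0.887 for cluster 10570651 and 0.873 for cluster 10570671, above Dixon's 95% critical value for 4 samples. Both clusters name Defa21, Defa22, Defa23 and Defa31, so they are not separate cases. In the other 6 alpha-defensin clusters the same array was lowest, at ratios of 0.380 to 0.725. This array was lowest past the critical value in 2.48% of all clusters tested and in 8 of 301 at a mean level of 13 or more. Both clusters of the Defa21 set are among these 8. Myd88 had calorie restricted replicate 2 as the lowest of its group, with a ratio of 0.926. About 1 in 20 groups passes the critical value by chance, counting any array at either end. The 2.48% and the 8 of 301 count only replicate 4 at the low end, which chance reaches less often, so the rates are not alike.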

How the results depend on the processing

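The number of alpha-defensin clusters called was 0 in all 15 alternatives, with 0 at an unadjusted p below 0.05 and a lowest adjusted p of 0.525 (limma). Of 120 recomputed differences, 111 kept their sign. After median centring the differences of clusters 10570663, 10570700, 10570703, 10570723, 10570735 and 10577437 were 0.0355, 0.0406, 0.0196, 0.0300, 0.0407 and 0.0624, in place of negative values. Cluster 10570700 was 0.0017 with the replicate block, and between -0.0742 and 0.0017 without 1 array (0.0017 without calorie restricted replicate 4). Cluster 10577437 was between -0.0517 and 0.00107 without 1 array (0.00107 without ad libitum replicate 3). The median over the 8 clusters was 0.0407 after median centring and between -0.0609 and -0.00243 without 1 array. The 4 clusters near the top of the range were also 4 after quantile normalization.

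Over all clusters, the count of higher calls was 50 with quantile normalization, 55 with the 60th percentile filter, 35 with unnamed clusters included, and 0 to 91 without 1 array. The count of lower calls was 1 in those 3 settings and after median centring, and 0 to 10 without 1 array. With the replicate block both counts were 0, with 1097 clusters at an unadjusted p below 0.05. Same-numbered arrays did not deviate together (r = -0.0859, -0.286 and -0.558 for numbers 1 to 3), so the numbers were not taken as pairs. The within-array contrast between the sets, added after seeing the data, was 0.132 after quantile normalization. The alpha-defensin clusters lie near the top of the range, the values hold no saturation call, and any effect of this on the differences was not tested.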

Other observations

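Beta-defensins are epithelial antimicrobial peptides of a related family. Of 40 beta-defensin genes with a single-symbol cluster, 9 passed the level filter. Of these, 0 were called, beside 0.599% of all clusters, and the median difference was -0.16. All but Defb1 had group means between 6.71 and 7.59, near the filter level of 6.79. Defb1, the constitutive epithelial beta-defensin, was singled out after its values were seen. It was at 11.74, 12.30, 12.20 and 11.88 in the calorie-restricted arrays, against 13.03, 11.69 and 11.32 in the ad libitum arrays (0.02 ± 0.37, limma, adjusted p = 0.995). The highest and the lowest value were both in ad libitum arrays.

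A cluster naming AY761185, counted here among alpha-defensin-like symbols without the Defa prefix, was at 10.03, 10.01, 10.14 and 9.87 in the calorie-restricted arrays, against 10.15, 9.60 and 10.19 in the ad libitum arrays (0.03 ± 0.15, adjusted p = 0.970). Of the 59 clusters within 1 log2 unit of the highest on every array, 34 had no symbol in the annotation used here and are not named.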
